A study of Mus musculus with 6 samples.

Results

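The transcripts described here are the newly assembled long noncoding RNAs (lncRNAs) in the stretch of mouse chromosome 8 that holds Sall1. All those whose assembled locus lay wholly between 88.8 and 90.1 Mb (mm10) were taken, which gave 26 of the 18573 transcripts in the table, from 24 genes at 19 separate loci. They were measured in spermatogonial stem cells (SSCs), the stem cells of the male germline, from testis, and in female germline stem cells (FGSCs), from ovary, with 3 strand-specific RNA-seq libraries per cell type. The labels give the strain of both as C57BL/6 and the age of the testis donors as 3 to 5 days and of the ovary donors as 6 days, whereas the methods of the study give these ages the other way round. According to the methods, both cell types came from Ddx4-Cre; mT/mG mice, whose germ cells turn green once Cre is made under the germ cell promoter Ddx4, and GFP-positive cells of many pooled animals were sorted and bound to laminin. The methods name an FVB line as the Ddx4-Cre parent, which differs from the labelled strain. Sex, tissue, age and the number of donor animals thus differed together between SSCs and FGSCs and cannot be told apart. The methods give the same steps for both, carried out separately for each cell type. The table holds 1 FPKM value (fragments per kilobase of exon, scaled to the number of mapped reads) per transcript and cell type and no value per library. Each value is thus the authors' estimate over 3 libraries, no SD or test of replicates was computed here, and the number of reads behind each value is unknown. The stretch was chosen by the FPKM of its transcripts in these same SSCs and FGSCs, so that its pattern is a description and carries no test.

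Sall1 encodes a zinc finger transcription factor of the spalt family, which is needed for kidney development in the mouse, and mutations of the human gene cause Townes-Brocks syndrome. Its relative Sall4 marks undifferentiated spermatogonia. lncRNAs are RNAs over a length limit that have no convincing open reading frame, and many are read from the opposite strand of a coding gene, from its upstream side or from enhancers in the wide gene-poor stretches that flank developmental regulators. Sall1 was the only protein-coding gene of GENCODE M21 in the stretch, where that annotation holds 8 genes in all. It lies on the minus strand from 89027235 to 89044162, so that its upstream side runs toward higher coordinates. The next coding genes are Cyld, a deubiquitinase gene that ends at 88751945, and Tox3, a gene for an HMG-box protein that begins at 90247040.

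The members fell into 3 places. A locus listed for 8 transcripts from 6 genes spanned Sall1 but for its last bases (chr8:89027248-89057669). It reached 13.5 kb past the Sall1 start on the upstream side. The same locus is listed for each of these genes, so the exact extent of each transcript within it is unknown. By their class code, which gives the relation to known genes, all but TCONS_00146479 are intergenic. This places them outside the annotated Sall1 gene, in the part of the locus upstream of its start. A group of 17 transcripts from 17 genes lay 824 to 891 kb upstream of the Sall1 start (chr8:89868532-89935397), and no gene of GENCODE M21 or RefSeq overlapped that interval. A lone transcript lay 78.1 kb on the other side of Sall1 (chr8:88948217-88949099). No member lay in the 811 kb between the Sall1 locus and the distal group, in which RefSeq places the lncRNA genes Gm35358, Gm35305, Gm35542 and Gm35593, apart from a few pseudogenes and small RNAs. According to the study, its new lncRNAs were those absent from RefSeq, Ensembl and NONCODE. Known lncRNAs are thus not counted here, and the lack of members does not show that this part is silent.

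Of these places, 3 sequences of 300 bases are shown, since the description turns on them. They are the Sall1 promoter, which the assembled locus spans, the most abundant member, and the middle of the interval that separates the strands of the distal group. The first is RefSeq's, on GRCm38.p6 (chr8:89044113-89044412, minus strand), and the others were read from the same assembly, to which mm10 corresponds. TCONS_00149687 is given on its inferred minus strand from the 5′ end of its locus (chr8:89917700-89917999, of 306 bases in all), and the interval on the plus strand (chr8:89926418-89926717). The exons of TCONS_00149687 are not given, so these genomic bases may not all be in the RNA. The CG dinucleotides, which read the same on both strands, are in capitals.
Sall1 promoter: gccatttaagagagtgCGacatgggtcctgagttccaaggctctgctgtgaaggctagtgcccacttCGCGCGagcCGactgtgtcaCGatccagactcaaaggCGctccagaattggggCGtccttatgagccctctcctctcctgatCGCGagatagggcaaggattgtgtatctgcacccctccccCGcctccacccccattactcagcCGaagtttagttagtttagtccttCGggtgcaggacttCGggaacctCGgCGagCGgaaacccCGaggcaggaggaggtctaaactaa
TCONS_00149687: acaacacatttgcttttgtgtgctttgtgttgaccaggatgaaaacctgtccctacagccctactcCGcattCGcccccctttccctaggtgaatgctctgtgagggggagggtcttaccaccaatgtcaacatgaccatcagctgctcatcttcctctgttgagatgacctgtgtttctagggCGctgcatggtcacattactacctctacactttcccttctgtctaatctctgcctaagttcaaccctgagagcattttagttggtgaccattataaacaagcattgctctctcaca
Middle of the interval: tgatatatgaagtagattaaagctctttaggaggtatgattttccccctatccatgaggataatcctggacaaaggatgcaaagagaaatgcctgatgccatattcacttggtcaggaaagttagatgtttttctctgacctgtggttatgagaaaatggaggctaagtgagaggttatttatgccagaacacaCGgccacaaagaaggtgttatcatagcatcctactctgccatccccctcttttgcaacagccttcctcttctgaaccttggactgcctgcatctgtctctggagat
The Sall1 promoter held 18 CG dinucleotides, and 29.7% of the 32851 promoters of this length in RefSeq, with a median of 7, held at least as many. TCONS_00149687 held 3 and the interval 1, and 76.7% and 94.6% of the promoters held at least as many. Neither of these is a promoter window, since the first lies inside the locus of TCONS_00149687 and the other is the middle of the interval. The whole interval of 1219 bases held 6 and had a GC content of 41.8%.

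**Figure D1:**
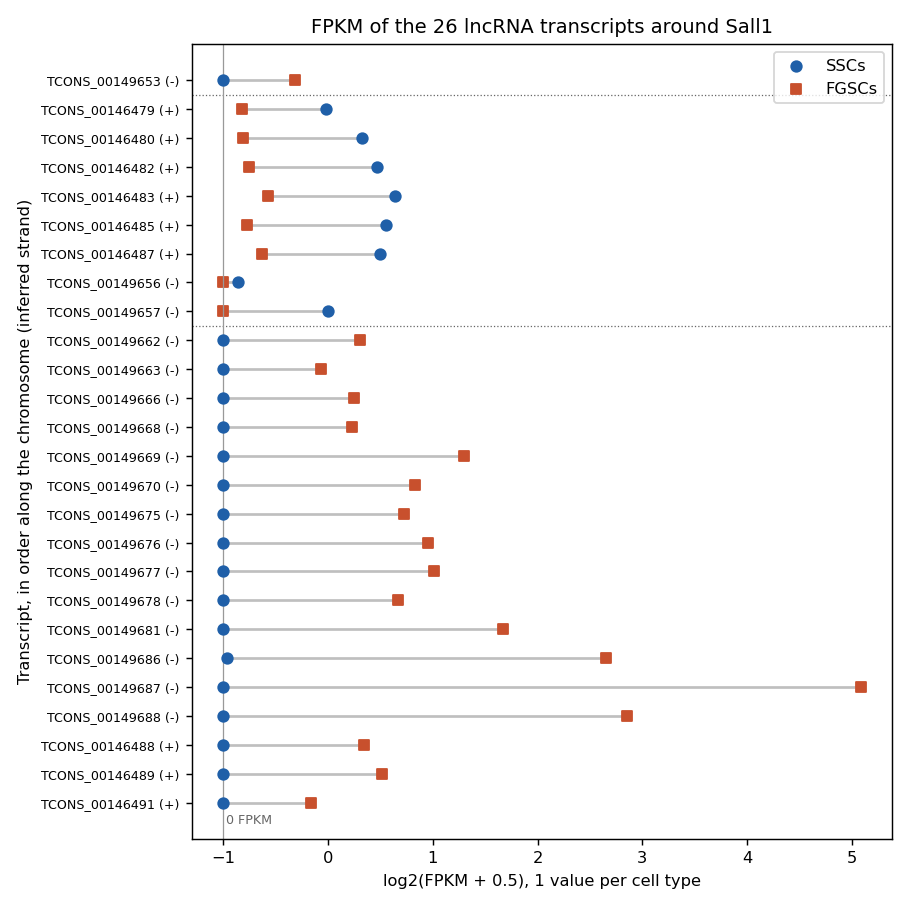
FPKM of the 26 members as log2(FPKM + 0.5), with 1 value for SSCs (circles) and 1 for FGSCs (squares) and no error bars, since no library values were used; dotted lines separate the lone transcript, the 8 at Sall1 and the 17 distal ones. The 8 at Sall1 are all higher in SSCs, and the 17 distal ones and the lone transcript are all higher in FGSCs.

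At Sall1 each of the 8 transcripts had a higher FPKM in SSCs. The summed level was 5.61 FPKM in SSCs against 0.627 FPKM in FGSCs, 8.95 times as much in SSCs. In the distal group each of the 17 transcripts had a higher FPKM in FGSCs. Their sums were 0.0108 FPKM in SSCs against 61.7 FPKM in FGSCs. The lone transcript was listed at 0 in SSCs and had 0.302 FPKM in FGSCs. The Sall1 locus thus held 99.8% of the members' summed FPKM in SSCs, and 0.627 of 62.6 FPKM in FGSCs. In bulk samples such as these, fewer cells of a type and less RNA per cell cannot be told apart.

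Transcripts at Sall1 were on both strands by inference from their numbers, 6 from 5 genes on the plus strand, opposite to Sall1, and 2 from a single gene on its own strand. TCONS_00146479 is the only member whose class code marks an overlap with an exon of a known gene on the opposite strand, and the gene is Sall1. It had 0.488 FPKM in SSCs and 0.0657 FPKM in FGSCs, a difference of 0.80 between the values of log2(FPKM + 0.5), a scale that shrinks differences among low values. TCONS_00146485, assigned to the same gene as TCONS_00146479 and hence on the same strand, reached 0.970 FPKM in SSCs against 0.0849 FPKM in FGSCs. Its difference of 1.33 was the largest among the transcripts at Sall1 with a value above 0 in both cell types, and its ratio of 11.4 as well.

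The most abundant of them in SSCs was TCONS_00146483, at 1.06 FPKM in SSCs against 0.172 FPKM in FGSCs. TCONS_00146487 stood at 0.912 FPKM in SSCs against 0.145 FPKM in FGSCs. These 2 were also the highest of the locus in FGSCs and had the smallest ratios. TCONS_00146482 stood at 0.883 FPKM in SSCs against 0.0908 FPKM in FGSCs. TCONS_00146480 stood at 0.754 FPKM in SSCs against 0.0690 FPKM in FGSCs. Over the 6 plus-strand transcripts the ratio of SSCs to FGSCs ran from 6.15 to 11.4, with a median of 8.58, and the lowest value in SSCs (0.488 FPKM) was above the highest in FGSCs (0.172 FPKM). These transcripts are listed at the same locus, and their exons are not given. Whether reads fit several of them and were divided by the estimate is unknown, so they are not taken as separate pieces of evidence.

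On the strand of Sall1, TCONS_00149657 had 0.498 FPKM in SSCs and TCONS_00149656 had 0.0492 FPKM, and both were listed at 0 in FGSCs. No fold is given for them, since the depth behind a listed 0 is unknown. All members but the antisense TCONS_00146479 are intergenic by their class code, also the other 7 at the locus that spans Sall1. These 25 make up 96.2% of the members, and the class makes up 86.0% of all transcripts in the table.

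RefSeq holds a lncRNA gene, Gm3134, also named Sall1os, on the plus strand from 89041243 to 89071019. It begins inside Sall1 and runs upstream past the end of the assembled locus. The plus-strand transcripts share its strand, and the locus listed for them covers part of its interval. The table gives the locus but not the exons of each transcript, so it was not tested whether any of them follows the exons of Gm3134. The mRNA of Sall1 itself is not among the values used here, and its level was not compared with that of the antisense transcript.

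**Figure D2:**
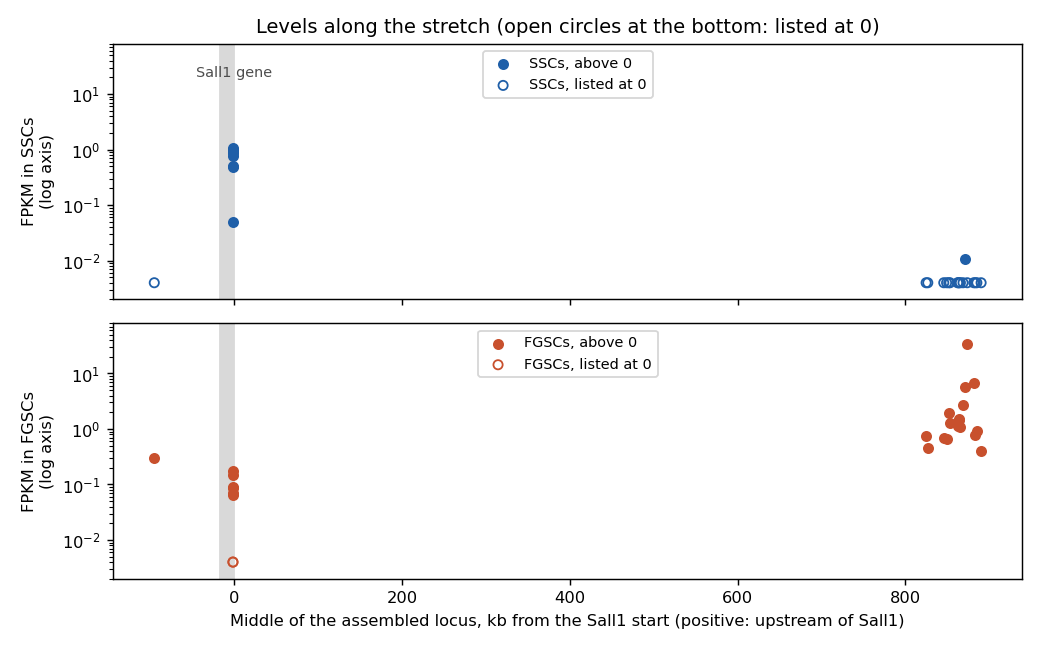
FPKM in SSCs (upper) and FGSCs (lower) on a log axis against the distance of the middle of each locus from the Sall1 start in kb, with the Sall1 gene shaded and members listed at 0 as open circles at the bottom. All members above 0 in SSCs are at Sall1 but 1 distal member at 0.0108 FPKM, and the distal members, 824 kb and more upstream, reach 33.4 FPKM in FGSCs.

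In the distal group 16 of the 17 transcripts were listed at 0 in SSCs, and the exception, TCONS_00149686, had 0.0108 FPKM there. Over all transcripts, 18.9% were listed at 0 in SSCs and 7.16% in FGSCs. Over the 26 members, 65.4% were listed at 0 in SSCs and 2 transcripts were listed at 0 in FGSCs. In FGSCs the distal transcripts ranged from 0.393 to 33.4 FPKM with a median of 1.15, whereas the median over the whole table was 0.442 FPKM. Of the 17, 10 exceeded 1 FPKM in FGSCs, a level that 13.8% of all transcripts exceeded.

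TCONS_00149687 stood far above the others. This intergenic transcript was listed at 0 in SSCs, had 33.4 FPKM in FGSCs and ranked 12 among all 18573 transcripts by its FPKM in FGSCs. It held 54.2% of the summed FPKM of the distal group in FGSCs, and without it the sum was 28.3 FPKM. At 306 bases its locus was the shortest of the members, a length within the fragment range that the library protocol aimed at, and FPKM of transcripts so short rests on few possible fragment positions. The part of length in its value was not tested. None of its bases was masked as a repeat, and it matched only its own place in the genome at 90% identity over 80% of its length.

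On either side of it lay the next most abundant members. TCONS_00149688 was listed at 0 in SSCs, with 6.72 FPKM in FGSCs. TCONS_00149686, the longest of the distal loci with 4125 bases, had 0.0108 FPKM in SSCs and 5.80 FPKM in FGSCs, a difference of -3.63 on the log2(FPKM + 0.5) scale. These 3 transcripts together held 74.5% of the distal sum in FGSCs. TCONS_00149681, next along, was listed at 0 in SSCs, with 2.68 FPKM in FGSCs.

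Transcripts of the distal group were arranged by strand. By inference from their numbers, 14 were on the minus strand over 57.4 kb, all at the side nearer to Sall1, and 3 were on the plus strand over 8.22 kb at the far side. They pointed away from a shared interval of 1219 bases (chr8:89925959-89927177) that no member covered. On the minus strand the 4 transcripts within 15 kb of that interval had 2.68 to 33.4 FPKM in FGSCs, and the 10 farther away had 0.454 to 1.95 FPKM, so that these ranges did not overlap. This limit was set after the values were seen.

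Reading the minus strand from the interval outward, TCONS_00149688 lay at its edge, and TCONS_00149687 lay 7.96 kb from it. Beyond TCONS_00149681 at 12.7 kb, the 4 transcripts TCONS_00149678, TCONS_00149677, TCONS_00149676 and TCONS_00149675 followed between 15.4 and 18.9 kb, with 1.08, 1.52, 1.44 and 1.15 FPKM in FGSCs. All 4 were listed at 0 in SSCs, and the last of them was separated from its neighbour by 55 bases. TCONS_00149670 at 28.5 kb had 1.28 FPKM and TCONS_00149669 at 30.1 kb had 1.95 FPKM in FGSCs, with 0 listed for both in SSCs. Both loci are short, with 403 and 323 bases. The levels did not fall evenly with distance, since TCONS_00149669 was above each of the 4 transcripts nearer to the interval at 15.4 to 18.9 kb.

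The members farthest out on the minus strand were lower. TCONS_00149668 had 0.669 FPKM and TCONS_00149666 had 0.689 FPKM in FGSCs, at 32.2 and 35.4 kb. TCONS_00149663 with 0.454 FPKM and TCONS_00149662 with 0.736 FPKM in FGSCs followed after an empty stretch of 17904 bases, at 54.7 and 56.9 kb. Each of these 4 was listed at 0 in SSCs.

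On the plus strand, TCONS_00146488 at the edge of the interval had 0.767 FPKM, TCONS_00146489 at 1.70 kb had 0.929 FPKM and TCONS_00146491 at 6.15 kb had 0.393 FPKM in FGSCs. All 3 were listed at 0 in SSCs. Their sum in FGSCs was 2.09 FPKM, against 59.6 FPKM for the 14 minus-strand transcripts. TCONS_00146491 is the last member along the stretch, 165 kb inside its upper end and 312 kb from Tox3.

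**Figure D3:**
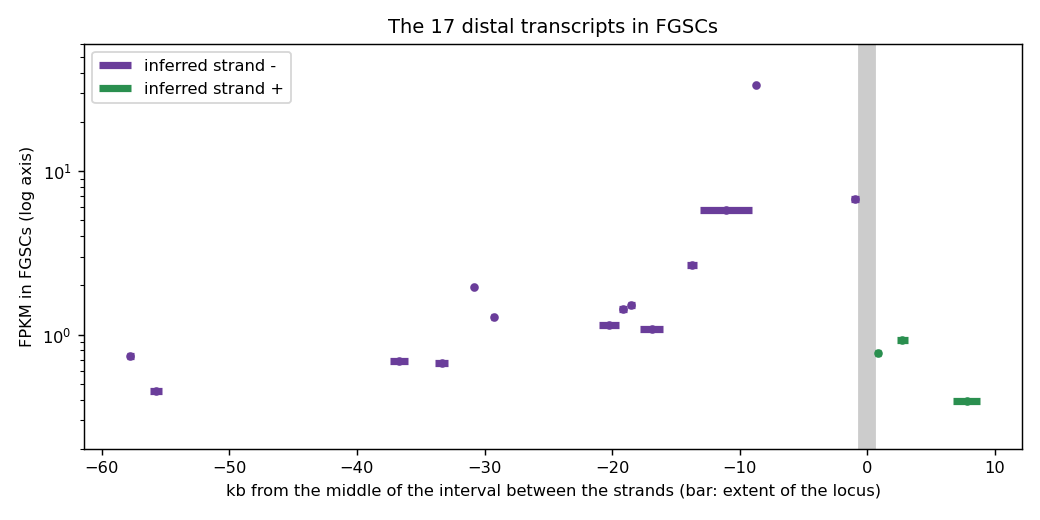
FPKM in FGSCs (log axis) of the 17 distal transcripts against the distance in kb from the middle of the 1219-base interval (shaded) between the strands, with bars for the extent of each locus and colours for the inferred strand. The highest value, 33.4 FPKM, is on the minus strand 7.96 kb from the edge of the interval, and the 3 plus-strand transcripts stay between 0.393 and 0.929 FPKM.

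The 17 distal loci had lengths of 306 to 4125 bases with a median of 769, and covered 27.5% of the 66866 bases they span. Neighbouring loci were 55 to 17904 bases apart, with a median of 1247. Whether close neighbours on the same strand are pieces of a single longer transcript was not tested, so the 17 may not be separate genes. Each distal locus had a single matching place in the genome under the limits above. Their GC content ran from 35.9% to 51.1% (median 42.2%), and that of the Sall1 locus was 48.5%. Masked repeats took 0 to 72.7% of a distal locus (median 17.4%), with only TCONS_00149670 above 50%. The Sall1 locus held 2.66 CG dinucleotides per 100 bases, and the distal loci 0 to 0.993. Both values of the Sall1 locus are over all its 30422 bases, of which 16915 lie in the Sall1 gene. They thus do not describe the lncRNAs listed there.

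The lone transcript on the other side of Sall1, TCONS_00149653, lay on the inferred minus strand and is also intergenic. It is 148 kb inside the lower end of the stretch. RefSeq places a regulatory region from 88986501 to 89018827, between this transcript and Sall1, that raises Sall1 expression in mouse embryonic stem cells. No member overlapped it, nor the VISTA enhancers mm984 (chr8:89270665-89273482) and mm1385 (chr8:89992683-89995450).

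A transcript was counted as SSC-high or FGSC-high when it reached 0.5 FPKM in SSCs or FGSCs and its values differed by more than 1 on the log2(FPKM + 0.5) scale, with no p-value. A transcript that exceeds 0.5 FPKM in a cell type and is listed at 0 in the other meets this limit by construction, and 14 of the 20 members counted are of that kind. Of the 26 members, 20 reached 0.5 FPKM, of which 5 were SSC-high and 15 FGSC-high. Of the 12019 transcripts of the whole table that reached it, 23.2% were SSC-high and 31.0% FGSC-high. Counted over all transcripts, with or without 0.5 FPKM, SSC-high ones were 5 of 26 members (19.2%) and 2786 of 18573 in the table, and FGSC-high ones 57.7% of the members and 20.1% of the table. Since the stretch was chosen by these values, nothing is read from the shares. The median difference (SSCs minus FGSCs) of the 20 members with at least 0.5 FPKM was -1.59, beside -0.42 over all 12019, and it is given as a description.

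The 6 members in neither class were low. The antisense TCONS_00146479 and both transcripts on the strand of Sall1 were higher in SSCs and short of the level limit. TCONS_00149653, TCONS_00149663 and TCONS_00146491 were higher in FGSCs and short of it too. All of the 5 SSC-high members were plus-strand transcripts at Sall1, with differences of 1.13 to 1.33, close to the limit of 1. With a pseudocount of 1 in place of 0.5, none of the 5 passed (0 SSC-high), and 10 were FGSC-high.

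**Figure D4:**
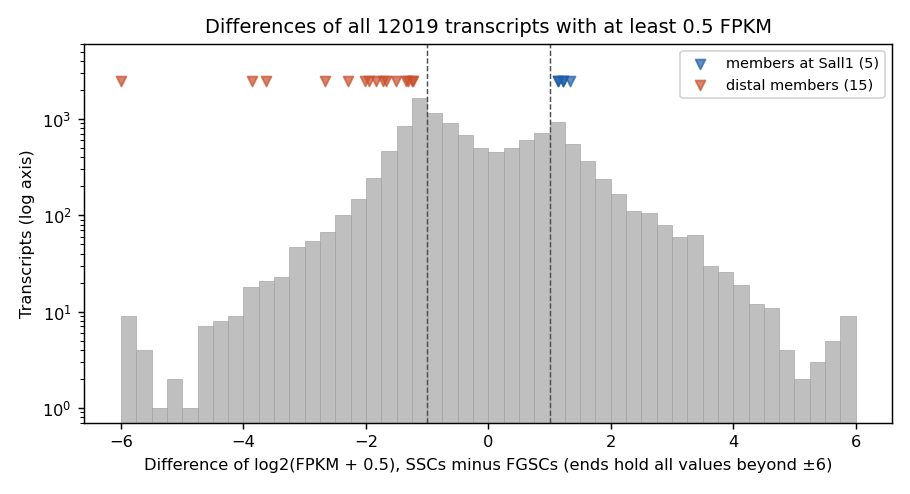
Distribution of the difference of log2(FPKM + 0.5), SSCs minus FGSCs, over the 12019 transcripts with at least 0.5 FPKM (bars, log axis), with the 5 members at Sall1 and the 15 distal members that reach this level as triangles and the limits of -1 and 1 dashed. The members at Sall1 sit between 1.13 and 1.33, and the differences of members listed at 0 in SSCs depend on the pseudocount.

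Along the chromosome the members past these limits formed 2 runs, the 5 SSC-high ones at Sall1 and then the 15 FGSC-high ones upstream, with no alternation. Of neighbouring pairs at separate loci no more than 10 kb apart, 13 of 13 shared their direction among the members. All 13 lay within the distal group. The SSC-high members share a single locus 811 kb from that group, so no pair could join the 2 runs. Of the 1732 such pairs of the whole table, 94.4% shared their direction, and nothing is read from the comparison. The stretch held 18.5 assembled lncRNA genes per Mb, against 6.15 on chromosome 8 and 6.34 over the whole table. The adjoining stretches of the same length held 11.5 per Mb at lower and 16.2 per Mb at higher coordinates. These are genes as assembled, and close neighbours may be pieces of a single transcript, which was not tested. Low values in SSCs and higher ones in FGSCs were not particular to the distal group, since in the adjoining stretch at higher coordinates 18 of 21 transcripts were listed at 0 in SSCs and their median in FGSCs was 2.67 FPKM. There, 17 of the 19 transcripts with at least 0.5 FPKM were FGSC-high and 0 SSC-high. In the adjoining stretch at lower coordinates 4 of 16 were listed at 0 in SSCs, and of the 8 with at least 0.5 FPKM, 2 were SSC-high and 2 FGSC-high. The transcript just outside the lower end, TCONS_00146476, lay 44.6 kb from it and had 0.275 FPKM in SSCs against 0.543 FPKM in FGSCs. The one nearest to the upper end, TCONS_00149695, lay 609 kb from it, was listed at 0 in SSCs and had 0.784 FPKM in FGSCs.

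Among the genes of the spalt family, Sall1 alone was overlapped by a listed locus of newly assembled lncRNAs, and Sall2, Sall3 and Sall4 by none. That locus is listed for 8 transcripts, of which only the antisense TCONS_00146479 overlaps an exon of Sall1 by its class code. Within 500 kb of Sall1 there were 10 transcripts, of which 6 reached 0.5 FPKM, with 5 SSC-high and 0 FGSC-high. These 5 are members, by which the stretch was chosen. Within 500 kb of Sall2 on chromosome 14 there were 7, of which 6 reached 0.5 FPKM, with 0 SSC-high and 3 FGSC-high. Sall3 on chromosome 18 had 4, all at this level (1 and 0). Sall4 on chromosome 2 had 19, of which 11 reached it (3 and 1). Over the whole table, 23.2% of the transcripts at this level were SSC-high and 31.0% FGSC-high. With so few transcripts per gene, nothing is read from these counts. The distal group lies beyond 500 kb from Sall1.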

How the data were processed

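RNA of SSCs and FGSCs was sequenced as 3 libraries each. Reads were aligned by the authors to mm10 and assembled into transcripts, of which they kept those over their length, coverage and coding-potential limits; the submitters' processing notes name TopHat2, Cufflinks and Cuffdiff 2.1.1. The deposited FPKM values are the authors' estimate, 1 per transcript and cell type over the libraries of each. Columns with the authors' own fold changes, test statistics, p-values and q-values were left out by choice, as the study's own comparison. The table has no library values from which to compute another test, so the calls are folds without a test. The depth per transcript is unknown, and the labelled cell types could not be checked against mRNA markers.

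The members and lists were chosen with earlier results of these data known. The rule for named transcripts took those of a class other than intergenic, the 12 with the highest FPKM, the 5 with the largest difference in each direction, the nearest to Sall1 and the ends of the stretch; the other members are named to account for all. Differences are log2(FPKM + 0.5) in SSCs minus FGSCs, over transcripts that reached 0.5 FPKM in a cell type. Starts are 1-based, with 1 added to the table's start, since 1634 loci then began at a GENCODE M21 transcript start and 33 did without it. The table has no strand. On all 20 chromosomes with both strands known from class codes, every plus-strand transcript had a lower number than every minus-strand one (36 and 41 transcripts on chromosome 8), and strands were read from the numbers. Copies in the genome were counted with BLAST 2.17.0. Python 3.11.15, pandas 2.3.3, NumPy 2.4.6, pysam 0.24.0 and matplotlib 3.10.9 were used. The counting of calls was run on simulated data without noise, low values or differences near the limits. That run checks the code only and not the calls of the members.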

Additional observations from a re-analysis of the deposited data

How the results depend on the processing

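No paired analysis was possible because the table gives 1 value per cell type, and no library could be left out for the same reason. The direction of each of the 7 members above 0 FPKM in both cell types held after quantile normalization. A change of pseudocount cannot reverse a direction. Making the medians equal could not do so either, since these members differed at least 6.15-fold. The 15 FGSC-high members were 10 with a pseudocount of 1 or with at least 1 FPKM required, 6 with a log2 limit of 2, and 15 under the other 6 alternatives. The 5 SSC-high members were 0 with a pseudocount of 1, 1 with at least 1 FPKM required and 0 with a log2 limit of 2, and 6 with equal medians (over the transcripts with at least 0.5 FPKM the median in SSCs was 0.857 of that in FGSCs), after quantile normalization or counted per gene. The 2 runs became 1 run with a pseudocount of 1 and 1 run with a log2 limit of 2, since no SSC-high member was left. The median difference of -1.59 was -1.004 with a pseudocount of 1 and -3.47 with one of 0.1, because most members are listed at 0 in SSCs. At the Sall1 locus every transcript but TCONS_00146483 was below 1 FPKM in both cell types, and without depths the precision of these low values is unknown.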

Other observations

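Beyond the upper end of the stretch and past Tox3, 17 further newly assembled transcripts lay on chromosome 8 from 90709465 to 90784802, an interval in which RefSeq places the lncRNA genes Gm35850 and Gm35963. All 17 were listed at 0 in SSCs and their FPKM summed to 42.8 in FGSCs. They were looked at because of the distal group and were chosen after their values were seen.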
